A study of Mus musculus with 4 samples.

Results

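The renin-angiotensin system was examined as 9 genes, Ren1, Agt, Ace, Agtr1a, Agtr1b, Agtr2, Mas1, Enpep and Lnpep, of the 55421 genes counted in whole mouse uteri. The members were taken by symbol, and each symbol belonged to 1 gene identifier. Uteri came from 2 pregnant WT mice of strain C57BL/6J and from 2 pregnant Qa-2- mice of strain B6.Cg-H2b3/FlaCmwJ (B6.K1), all untreated and at gestational age E18.5, with 1 RNA-seq library per mouse. Qa-2- mice lack Qa-2, a non-classical MHC class I antigen encoded in the H2 complex on chromosome 17. The strain arose spontaneously from crosses of congenic lines and is therefore no engineered deletion of single genes, so that other differences between the strains cannot be told apart from the lack of Qa-2. Matings were syngeneic, so fetuses of Qa-2- mothers lacked Qa-2 as well. Each library was made by poly(A) capture from a piece of whole uterus, which holds muscle, stroma, epithelium, vessels and blood together. The comparison asks whether genes of this blood pressure system differ between uteri with and without Qa-2.

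Renin, a protease encoded by Ren1, cuts angiotensin I from its precursor angiotensinogen, the product of Agt. Angiotensin-converting enzyme, encoded by Ace, trims this peptide to angiotensin II, which constricts vessels through the AT1 receptors (Agtr1a and Agtr1b in the mouse), while the AT2 receptor (Agtr2) opposes many of these effects. The system acts in the circulation and also within tissues, and uterus, decidua and placenta hold a local form of it that takes part in the vascular adaptation to pregnancy.

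The libraries held between 33286390 and 41041299 read pairs counted on genes, and the WT libraries were the deeper ones. A value of 1 CPM, the count scaled to library size, stood for 33.3 to 41.0 read pairs. H2-Q7, a Qa-2 gene, was counted 6318 and 1251 times in WT but 4 and 2 times in Qa-2- uteri, so the libraries followed their labels. The uterine genes Esr1, Pgr, Hoxa10, Hoxa11 and Oxtr were detected in all libraries, with a summed level of 803.6 to 969.8 CPM. Qa-2- replicate 1 stood apart by its visceral yolk sac and liver markers, whose summed level was 588.9 CPM against 10.5 to 60.2 CPM in the other libraries. For all 6 endothelial and all 3 blood markers each WT library exceeded each Qa-2- library, as it did for 4 of 5 smooth muscle markers. By contrast, 4 of 6 epithelial markers were higher in both Qa-2- libraries. WT was also higher in this way for 3 of 5 stroma, 3 of 6 mural cell and 2 of 4 macrophage markers, and Qa-2- for 1 stroma marker. Among the 14492 genes tested below, 25.4% were separated in this way with WT higher and 24.5% with Qa-2- higher. None of these markers passed the edgeR test at an adjusted p of 0.05. In whole tissue, fewer cells of a type and less RNA per cell cannot be told apart.

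Of the 9 members, 6 had at least 1 CPM in at least 2 libraries and were tested, while Agt, Agtr1b and Mas1 were below this filter. CPM values are given on library sizes scaled by TMM normalization, and differences as WT over Qa-2- on the log2 scale. For Ren1 and Ace each WT library exceeded each Qa-2- library, and for Agtr2 and Lnpep the order was the opposite. The libraries of the groups overlapped for Agtr1a and Enpep. Thus 2 of 6 members were separated with WT higher, where 25.4% of all 14492 genes tested were, and 2 of 6 with Qa-2- higher, where 24.5% of all genes were, so that the members were separated about as often as other genes. No member passed the quasi-likelihood test of edgeR at an adjusted p (Benjamini-Hochberg, over all genes tested) of 0.05, and neither did any other gene (0% called). At an unadjusted p under 0.05 there were 2 members, Ren1 and Ace, both higher in WT (8.09% of all genes with WT higher, 7.09% with Qa-2- higher). DESeq2's Wald test called 1 of the 6 members, Ren1, where it called 2.79% of all genes with WT higher and 2.04% with Qa-2- higher. Ren1 had passed the filter only through its WT libraries and could hardly be kept without being higher there. Among the other 5 members tested, 1 was separated with WT higher and 2 with Qa-2- higher, 1 had an unadjusted p under 0.05, and DESeq2 called 0. The median difference of the 6 members was 0.31 on the log2 scale, with a range from -1.10 to 1.94, and 0.16 without Ren1, with a range from -1.10 to 0.78, beside 0.01 for all genes tested. With 2 mice per group, exact permutation of the labels cannot give a two-sided p below 0.33 for any gene. The labels give each library as a separate sample, and the p-values measure the spread between these mice.

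**Figure D1:**
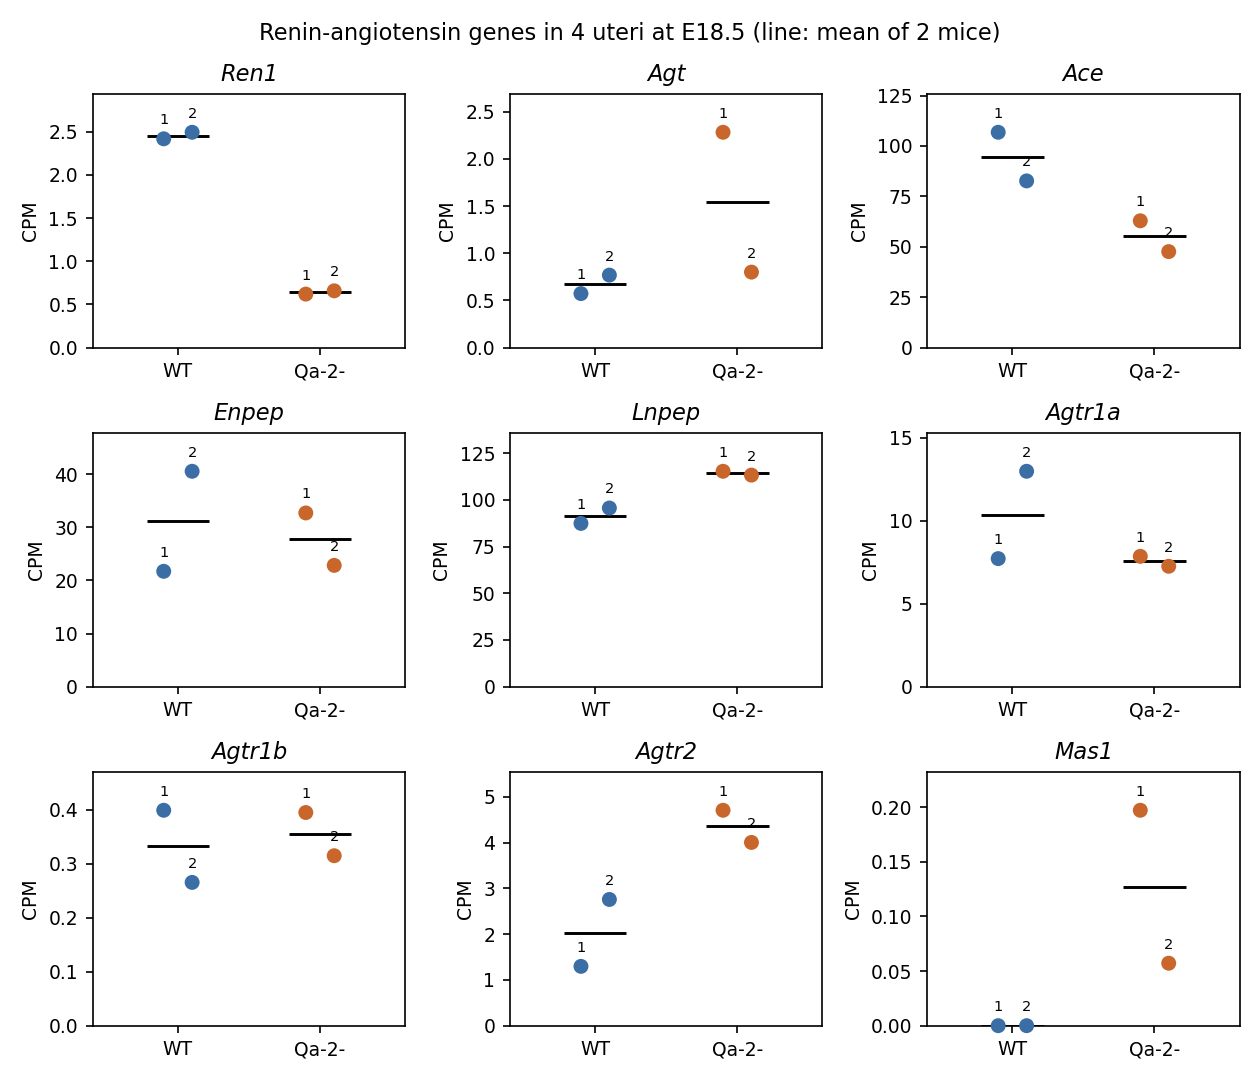
Level of each member in CPM (vertical axis, starting at 0, own scale for each gene) in the 2 WT and 2 Qa-2- uteri, with the replicate number above each point and a line at the group mean. Ren1 lies between 2.42 and 2.49 CPM in WT and between 0.62 and 0.658 CPM in Qa-2- uteri, while the points of Enpep and Agtr1a overlap between the groups.

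Ren1 (ENSMUSG00000070645) lies on the forward strand of chromosome 1 of GRCm38, from 133350510 to 133360325. It showed the largest difference of the 6 members tested. Ren1 was counted 97 and 94 times in WT replicates 1 and 2 but 22 and 23 times in the Qa-2- replicates, or 2.42 and 2.49 CPM against 0.62 and 0.658 CPM. The values within each group were nearly equal, and the groups were well apart. The group means were 2.45 ± 0.0534 CPM for WT and 0.639 ± 0.0267 CPM for Qa-2- uteri (SD, n = 2 each). The fitted level of Ren1 was 3.83-fold higher in WT, a log2 fold change of 1.94 with a standard error of 0.37 (edgeR quasi-likelihood, adjusted p = 0.246). DESeq2's Wald test gave an adjusted p of 0.013 for Ren1, the lowest over the alternatives run, which reached up to 0.818. Leaving out each library in turn kept its log2 fold change between 1.89 and 1.98. In the fit without a filter, which avoids choosing Ren1 through its WT libraries, the edgeR adjusted p was 0.123.

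Per length, the level of Ren1 was 3.98 and 4.43 TPM (transcripts scaled to gene length and depth) in WT and 1.19 and 1.21 TPM in Qa-2- uteri. The endothelial markers that moved with Ren1 had summed levels of 1074 and 948 CPM in WT against 483 and 455 CPM in Qa-2- uteri, with log2 fold changes from 0.62 to 1.63. The blood markers Hba-a1, Hbb-bs and Alas2 summed to 331 and 642 CPM against 103 and 68.4 CPM, with log2 fold changes from 2.02 to 2.58. Their part in the difference of Ren1 was not tested.

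As the tested member with the largest difference, Ren1 is shown with its promoter, 300 bases around the RefSeq start, chr1:133350424-133350723 of GRCm38.p6, forward strand, from RefSeq. Capitals mark the TATA box letters TATAAA, which start 29 bases before the start.
Ren1 promoter: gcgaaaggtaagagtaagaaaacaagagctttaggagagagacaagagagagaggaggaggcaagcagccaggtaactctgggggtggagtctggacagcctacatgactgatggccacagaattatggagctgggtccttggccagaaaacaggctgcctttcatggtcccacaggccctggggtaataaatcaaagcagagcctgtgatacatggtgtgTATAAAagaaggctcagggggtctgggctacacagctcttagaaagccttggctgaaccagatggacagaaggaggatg
Promoters were found for 8 of the 9 members. TATAAA was searched on both strands and is held by 13.6% of the 32851 mouse promoters of this length. It is also found 30 bases before the start of Agt and 31 bases before that of Agtr1b on the same strand, on the other strand at the upstream start of Ace and at 2 positions at Enpep, and not in the windows of Agtr2, Mas1, Lnpep and the downstream start of Ace. The cAMP response element TGACGTCA is in none of these windows and in 1.79% of all promoters. These matches are a description of the letters.

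Agt (ENSMUSG00000031980; chromosome 8, 124556534 to 124569706, reverse strand) encodes the only substrate of renin, which reaches the blood mainly from the liver. Counts were 23 and 29 in the WT libraries, 81 in Qa-2- replicate 1 and 28 in the other Qa-2- library. The high value was that of Qa-2- replicate 1 alone, at 2.28 CPM, while the other 3 libraries lay between 0.573 and 0.801 CPM. The same library was highest for 7 of the 8 visceral yolk sac and liver markers. In a fit without the expression filter the log2 fold change of Agt was -1.18 with a standard error of 0.61 (edgeR quasi-likelihood, adjusted p = 0.566), and it was -0.25 without Qa-2- replicate 1. None of the 8 markers was at 0 in any library, and their part in the level of Agt was not tested beyond leaving out this library.

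**Figure D2:**
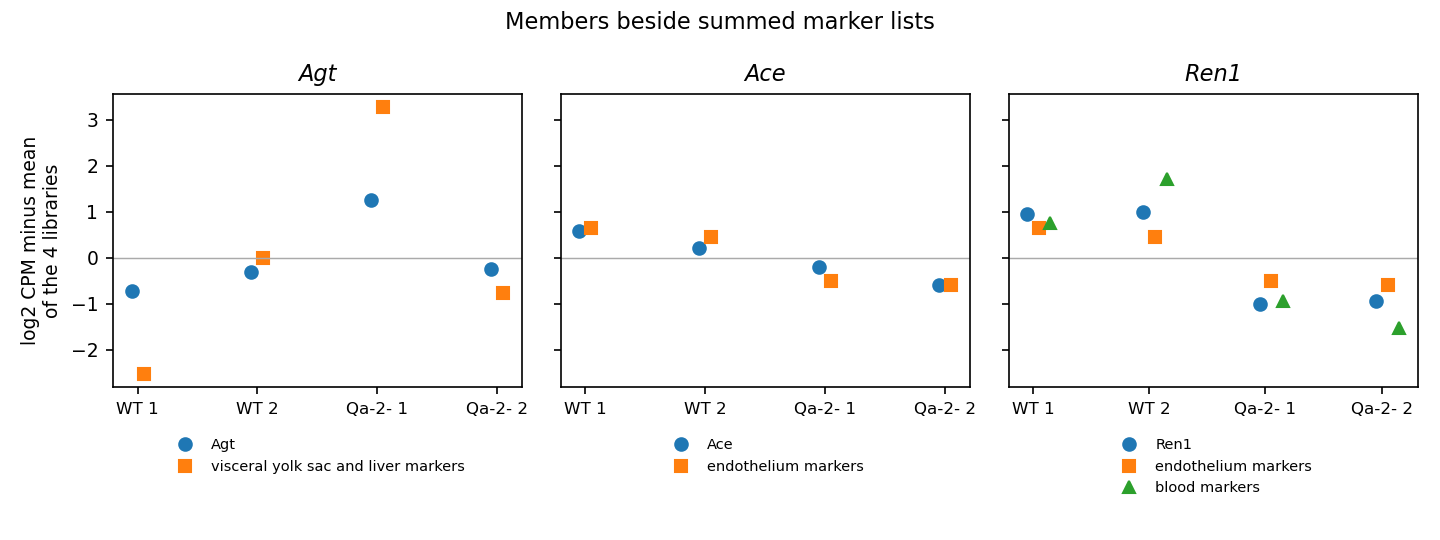
Agt, Ace and Ren1 (circles) beside summed marker lists (squares and triangles) in each library, as log2 CPM minus the mean of the 4 libraries. Agt and the yolk sac and liver markers are both highest in Qa-2- replicate 1, and Ace, Ren1, the endothelial and the blood markers are higher in both WT libraries.

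Ace (ENSMUSG00000020681; chromosome 11, 105967945 to 105989964, forward strand) was the most abundant member per length in every library. Its counts were 4287 and 3119 in WT but 2233 and 1666 in Qa-2- uteri. This was 107 and 82.7 CPM against 62.9 and 47.6 CPM, so that both WT libraries were above both Qa-2- libraries, with a gap that is smaller than for Ren1 in relation to the spread. The group means were 94.7 ± 17.05 CPM for WT and 55.3 ± 10.8 CPM for Qa-2- uteri (SD, n = 2 each). The log2 fold change was 0.78 with a standard error of 0.22, or 1.71-fold (edgeR quasi-likelihood, adjusted p = 0.275), and 0.55 to 0.99 when each library was left out in turn.

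ACE sits on the surface of endothelial cells, and its level was set beside the endothelial markers. The median log2 fold change of these 6 genes was 0.95. Ratios of Ace to each of the 6, per length and formed after the values were seen, overlapped between the groups for 5 markers. The exception was Cdh5, for which the ratio was 0.191 and 0.275 in WT and 0.432 and 0.360 in Qa-2- uteri. For Pecam1 it was 0.416 and 0.271 in WT and 0.408 and 0.301 in Qa-2- uteri. The part of the endothelium in the difference of Ace was not tested. Counts of Ace are summed over the gene, and Gm11651 overlaps it on the other strand, which the stranded counting keeps apart. The somatic and the germ cell form of ACE cannot be told apart.

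Enpep (ENSMUSG00000028024; chromosome 3, 129269175 to 129332720, reverse strand) encodes aminopeptidase A, which shortens angiotensin II to angiotensin III. Its counts were 872 and 1530 in WT against 1161 and 799 in Qa-2- uteri, or 21.7 and 40.6 CPM against 32.7 and 22.8 CPM. WT replicate 2 and Qa-2- replicate 1 were the high libraries, and the groups overlapped fully. Summed over 6 trophoblast markers, the level was 0.473 and 21.7 CPM in WT and 3.55 and 0.143 CPM in Qa-2- uteri. Gcm1 was at 0 in all libraries, and WT replicate 2 was highest for the other 5 markers, with Psg21 and Prl3b1 at 0 elsewhere. The sum of Qa-2- replicate 1 was mostly Tpbpa at 3.24 CPM, while Prl8a8 had 0 counts there and 8 counts in WT replicate 1. The 5 stroma markers summed to 9988 and 17906 CPM in WT and to 17769 and 9249 CPM in Qa-2- uteri. Of these, Col1a1 had 5472 and 14317 CPM in WT and 15144 and 7398 CPM in Qa-2- uteri. Dcn, Hand2 and Lum were higher in both WT libraries, and Pdgfra was higher in both Qa-2- libraries. The part of the trophoblast and stroma markers in the level of Enpep was not tested.

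The log2 fold change of Enpep was 0.16 with a standard error of 0.35 (edgeR quasi-likelihood, adjusted p = 0.849), and its sign turned without WT replicate 2 (-0.36) and without Qa-2- replicate 2 (-0.07).

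Lnpep (ENSMUSG00000023845; chromosome 17, 17521410 to 17625050, reverse strand) encodes the insulin-regulated aminopeptidase, also known as oxytocinase, which cleaves oxytocin and vasopressin and binds angiotensin IV. Its 3508 and 3607 counts in WT stood against 4092 and 3961 counts in Qa-2- uteri. On the CPM scale these were 87.4 and 95.6 against 115 and 113, a small difference with closely spaced replicates and Qa-2- higher in every pairing of libraries. The means were 91.5 ± 5.82 CPM for WT and 114 ± 1.45 CPM for Qa-2- uteri (SD, n = 2 each). The log2 fold change was -0.32 with a standard error of 0.16, or 1.25-fold higher in Qa-2- uteri (edgeR quasi-likelihood, adjusted p = 0.391). Lnpep starts 17.9 Mb and Mas1 22.6 Mb below the start of H2-Q7 on the same chromosome, and the other members lie on other chromosomes.

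Among the receptors, Agtr1a and Agtr1b are close copies, so their coding parts were compared before their counts were read. Each has 1080 coding bases, of which 90.8% are identical. The longest stretch without a difference is 66 bases, and none of the 981 windows of 100 bases, the read length of the study, is shared, so that a read within the coding part covers at least 1 difference. This longest shared stretch is shown with 10 bases on either side for both genes, from GENCODE M21 transcripts on GRCm38, with capitals at the bases that differ. Agtr1a is at chr13:30381018-30381103 on the forward strand and Agtr1b at chr3:20316291-20316376 on the reverse strand.
Agtr1a: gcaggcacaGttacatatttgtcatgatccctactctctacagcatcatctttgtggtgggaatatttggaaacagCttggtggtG
Agtr1b: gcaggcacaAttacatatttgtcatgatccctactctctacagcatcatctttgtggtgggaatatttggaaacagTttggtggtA
Mapping with mismatches can still move reads between such copies, so the split between them is uncertain.

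Agtr1a (ENSMUSG00000049115; chromosome 13, 30336441 to 30382867, forward strand) was the most abundant receptor of the 4 per length. Its counts were 310 and 490 in WT but 279 and 254 in Qa-2- uteri, or 7.72 and 12.99 CPM against 7.86 and 7.26 CPM. WT replicate 2 alone was high, and the other 3 libraries lay close together. The log2 fold change was 0.45 with a standard error of 0.32 (edgeR quasi-likelihood, adjusted p = 0.524), and 0.03 without WT replicate 2. The same library was highest for all 6 mural cell markers, whose summed level was 961 CPM there and 466 to 598 CPM in the others, and for all 5 smooth muscle markers. Their part in the level of Agtr1a was not tested. Agtr1b (ENSMUSG00000054988; chromosome 3, 20314473 to 20367177, reverse strand) was near the limit of detection, with 16 and 10 counts in WT and 14 and 11 counts in Qa-2- uteri, and the groups overlapped. In the fit without a filter its log2 fold change was -0.08 with a standard error of 0.80, and no difference was detected.

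Agtr2 (ENSMUSG00000068122; chromosome X, 21484544 to 21489164, forward strand) went the other way. Its counts were 52 and 104 in WT but 167 and 140 in Qa-2- uteri. In CPM the WT libraries were at 1.30 and 2.76 and the Qa-2- libraries at 4.71 and 4.003, so both Qa-2- libraries were above both WT libraries, although the WT libraries differed much from each other. The group means were 2.03 ± 1.03 CPM for WT and 4.35 ± 0.497 CPM for Qa-2- uteri (SD, n = 2 each). The fitted Qa-2- level was 2.15-fold higher, with a log2 fold change of -1.10 with a standard error of 0.45 (edgeR quasi-likelihood, adjusted p = 0.342). WT replicate 1 decided much of its size, as the log2 fold change was -0.69 without this library and -1.75 without WT replicate 2. Epithelial markers, which moved in the same direction, summed to 2129 and 1268 CPM in WT and to 2950 and 2898 CPM in Qa-2- uteri. Within WT the epithelial sum ran opposite to Agtr2, and Epcam and Muc1 overlapped between the groups. Also higher in both Qa-2- libraries were Pdgfra, with 172 and 252 against 330 and 309 CPM, and Esr1, with 224 and 273 against 349 and 403 CPM. They were the only 1 of 5 stroma and 1 of 5 uterine markers, while 3 stroma and 2 uterine markers were higher in both WT libraries. The part of these markers in the difference of Agtr2 was not tested.

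Mas1 (ENSMUSG00000068037; chromosome 17, 12841079 to 12868143, reverse strand), the receptor of a shorter peptide formed from angiotensin II, had 0 counts in both WT libraries, 7 in Qa-2- replicate 1 and 2 in the other Qa-2- library. A count of 0 allows up to 3 counts, or 0.0731 and 0.0761 CPM of the library totals in WT, for counting error alone. The 2 counts of Qa-2- replicate 2 are under this floor, and no fold change is given.

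The make-up of the receptor transcripts did not overlap between the groups for Agtr1a and Agtr2, while their sum did. Agtr2 made up 11.6% and 14.8% of the summed TPM of Agtr1a, Agtr1b, Agtr2 and Mas1 in WT and 31.5% and 30.2% in Qa-2- uteri. Agtr1a made up 82.8% and 83.0% in WT and 62.8% and 65.5% in Qa-2- uteri. Thus Agtr1a was 7.12 and 5.62 times as abundant as Agtr2 in WT and 1.99 and 2.17 times in Qa-2- uteri, with no overlap. The summed receptor level was 9.14 and 16.5 TPM in WT and 14.3 and 12.2 TPM in Qa-2- uteri and overlapped. The shares of Agtr1a and Agtr2 are parts of the same whole, so these shares and their ratio are not separate results. The level of Agtr1a itself overlapped between the groups. These shares were formed after the levels were known and are given as a description, without a test.

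**Figure D3:**
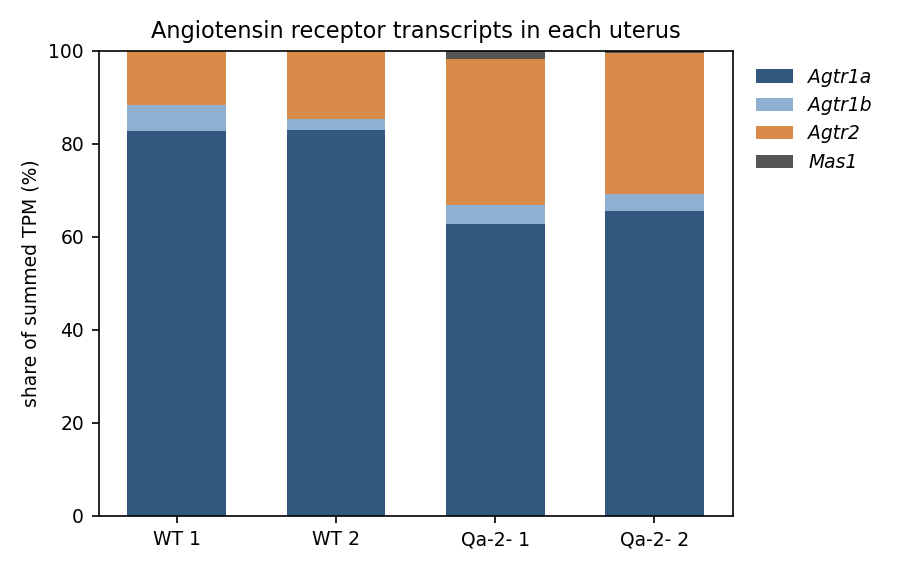
Share of each angiotensin receptor in the summed TPM of Agtr1a, Agtr1b, Agtr2 and Mas1 (vertical axis, percent) for each uterus. The part of Agtr2 is 11.6% and 14.8% in WT and 31.5% and 30.2% in Qa-2- uteri.

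Ordered by the mean TPM over all 4 libraries, with both strains pooled, Ace led with 41.7 (27.6 to 55.2), above Lnpep with 21.8 (16.9 to 26.0) and Enpep with 18.7 (12.6 to 25.4). Agtr1a followed with 9.57 (7.57 to 13.7), and Agtr2 with 2.92 (1.06 to 4.51), Ren1 with 2.704 (1.19 to 4.43) and Agt with 1.79 (0.828 to 3.85) formed a lower group. Agtr1b at 0.476 (0.363 to 0.586) and Mas1 at 0.0767 (0 to 0.24) were lowest. The ranges of neighbours overlapped between Lnpep and Enpep, between Enpep and Agtr1a, and among Agtr2, Ren1 and Agt. The pooled order did not hold within each strain. The mean of Enpep was 18.99 TPM and that of Lnpep 18.4 TPM in WT, against 18.51 and 25.2 TPM in Qa-2- uteri, and the values of this pair overlapped in WT. For Ren1, Agtr2 and Agt the order differed as well. Ren1, at 3.98 and 4.43 TPM, was above Agtr2 at 1.06 and 2.44 TPM and Agt at 0.828 and 1.20 TPM in WT. In Qa-2- uteri Ren1, at 1.19 and 1.21 TPM, was below Agtr2 at 4.51 and 3.68 TPM and Agt at 3.85 and 1.29 TPM. The ratio of Ace to Ren1 in TPM was 13.9 and 10.4 in WT and 31.8 and 22.7 in Qa-2- uteri.

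A further 25 genes of the pathway were examined, namely 14 peptidases, 5 receptors and receptor partners and 6 genes of the kinin and aldosterone branches. Of these 23 were tested, while Bdkrb1 was below the filter and Mrgprd had 0 counts in all libraries. None passed the edgeR test at an adjusted p of 0.05, and at an unadjusted p under 0.05 there were 2 with WT higher (8.09% of all genes) and 2 with Qa-2- higher (7.09% of all genes). DESeq2's Wald test called 1 gene with WT higher, Kng2 (2.79% of all genes), and 1 with Qa-2- higher, Klk1 (2.04% of all genes). In the fit without a filter, where 0.216% of 28242 genes were called, edgeR called Kng2. Groups did not overlap for 6 genes with WT higher and 6 with Qa-2- higher, near the 25.4% and 24.5% of all genes, and overlapped for 11 genes. The median log2 fold change was -0.09, from -1.70 to 2.53.

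The kinin branch is tied to the system because ACE also degrades bradykinin. Kng2, a gene for kininogen, the kinin precursor, had 22.9 and 28.3 CPM in WT against 3.04 and 5.80 CPM in Qa-2- uteri, with a fitted difference of 2.53 (log2) with a standard error of 0.36 (edgeR quasi-likelihood, adjusted p = 0.246). Its close copy Kng1 had 4.53 and 11.9 CPM in WT against 4.96 and 1.001 CPM, and these overlapped. The log2 fold change of Kng1 was 1.46, and 0.60 to 3.03 when each library was left out in turn. The split between the copies is uncertain, and their sum was 27.5 and 40.2 CPM in WT against 8.002 and 6.80 CPM in Qa-2- uteri. Klk1, tissue kallikrein, which releases kinins from kininogen, went the other way, with 440.4 and 144 CPM in WT and 609.5 and 1286 CPM in Qa-2- uteri. Its log2 fold change was -1.70 with a standard error of 0.65 (edgeR quasi-likelihood, adjusted p = 0.320), and it was -1.06 without Qa-2- replicate 2, -1.11 without WT replicate 2 and -2.74 without WT replicate 1. Klk1 has close paralogs to which reads could be lost. The kinin receptor gene Bdkrb2 had 11.4 and 8.01 CPM in WT and 8.34 and 6.43 CPM in Qa-2- uteri, which overlapped.

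Among the other genes taken by the rule, the neutrophil protease gene Ctsg had a log2 fold change of 1.77 that rested on WT replicate 1, with 7.57 CPM there and 0.477 to 1.46 CPM elsewhere, and of -1.33 without it. Hsd11b2, whose enzyme inactivates glucocorticoids and so guards the mineralocorticoid receptor, had 455 and 804 CPM in WT against 949 and 1009 CPM in Qa-2- uteri, with no overlap. Mtus1, which encodes an AT2 receptor interacting protein, had 144 and 98.2 CPM in WT against 142 and 216 CPM in Qa-2- uteri, with an overlap. The log2 fold changes of Hsd11b2 and Mtus1 were -0.64 (standard error 0.35) and -0.56 (standard error 0.30), with ranges of -1.11 to -0.31 and -0.89 to -0.23 when each library was left out in turn. The mast cell peptidases Cma1, Mcpt4 and Cpa3, of which chymase (Cma1) can form angiotensin II without ACE, had log2 fold changes between -0.39 and -0.19. The further peptidases tested had values of -0.23 (Thop1), -0.09 (Nln), 0.18 (Prep), 0.33 (Prcp), 0.39 (Anpep), -0.20 (Rnpep), -0.26 (Dpp3) and 0.50 (Ctsa). Atp6ap2, the gene of the prorenin receptor, had 0.19, Agtrap and Arap1, whose products bind or traffic the AT1 receptor, had 0.16 and -0.41, and the mineralocorticoid receptor gene Nr3c2 had 0.73.

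Mme, looked at after its values were seen, encodes neprilysin, a peptidase that also cleaves angiotensin I. It had 49.3 and 58.1 CPM in WT against 86.1 and 72.0 CPM in Qa-2- uteri. Its log2 fold change was -0.56 with a standard error of 0.17 (edgeR quasi-likelihood, adjusted p = 0.286). The ratio of Ace to Mme in TPM was 4.73 and 3.11 in WT and 1.596 and 1.44 in Qa-2- uteri. Ace was higher in both WT libraries and Mme in both Qa-2- libraries, so this ratio could not overlap. It is no separate result.

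**Figure D4:**
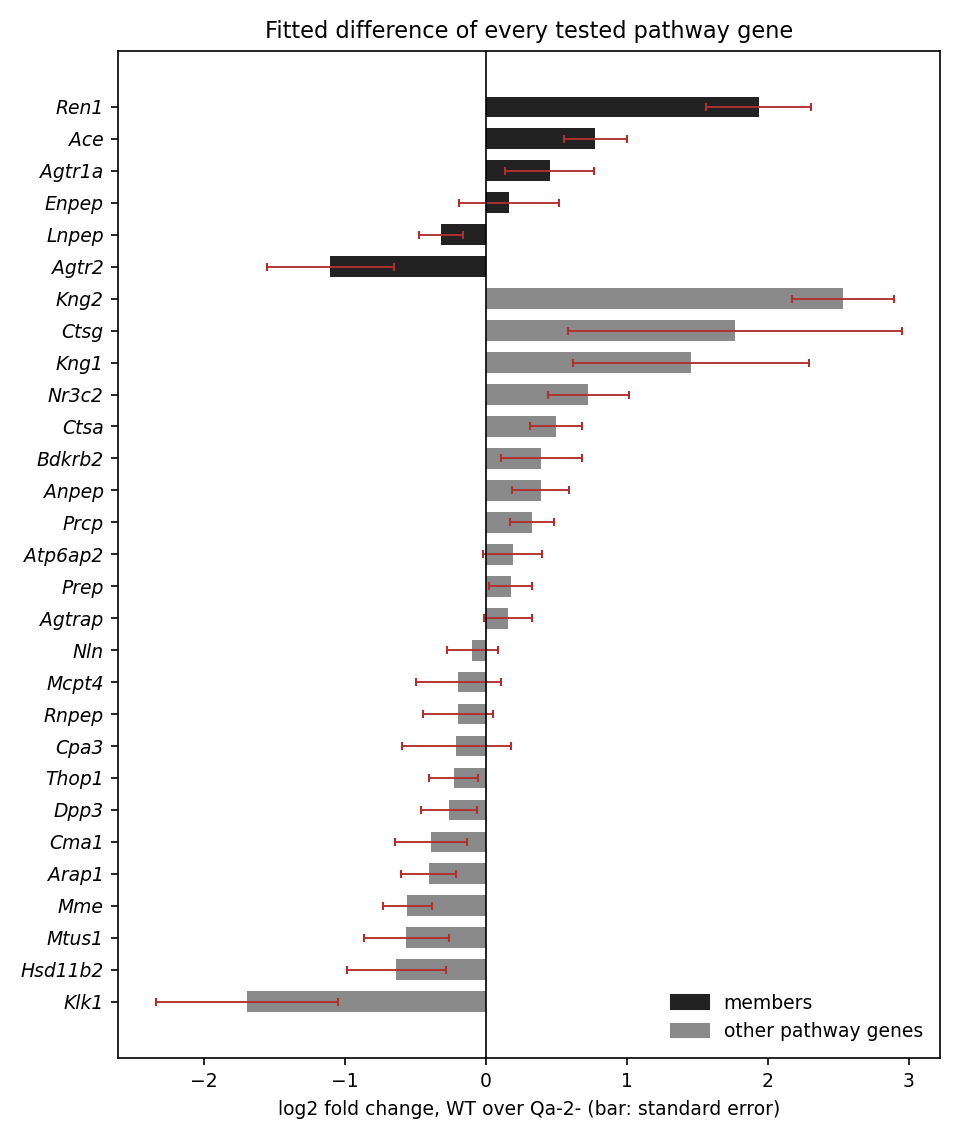
Fitted log2 difference, WT over Qa-2- (horizontal axis) with its standard error for the 6 tested members (black) and the 23 other tested pathway genes (grey). Ren1 at 1.94 and Kng2 at 2.53 lie farthest to the WT side and Agtr2 at -1.10 and Klk1 at -1.70 farthest to the Qa-2- side. None of these genes had an adjusted p under 0.05 in this edgeR fit with the filter, while edgeR without a filter called Kng2.

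The genes whose levels over the 4 libraries were most like those of Ren1 were Meox1, Lgals7, Cxcl1, Vwce and Id1. The measure was the root mean square difference of log2(CPM + 0.5), centred on each gene's own mean, which was 0.03 to 0.08 for these 5 of 14491 genes. Meox1, a homeobox gene, had 33.1 and 35.9 CPM in WT and 12.5 and 12.98 CPM in Qa-2- uteri. Id1, a target gene of BMP signalling, had 57.4 and 55.8 CPM against 18.7 and 19.8 CPM. The added 0.5 shrinks differences of low genes such as Ren1 more than those of abundant ones. The fitted log2 fold changes were 1.43 for Meox1, 2.699 for Lgals7, 2.06 for Cxcl1, 1.38 for Vwce and 1.55 for Id1, beside 1.94 for Ren1, so the patterns were alike in shape on this scale but not equal in size. Lgals7 had 1.37 and 1.25 CPM in WT against 0.197 and 0.200 CPM, and Cxcl1 had 1.92 and 1.78 CPM against 0.394 and 0.486 CPM. Like Ren1, both passed the filter only through their WT libraries and could hardly be kept without being higher there. The likeness rests on 4 libraries and is a description.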

How the data were processed

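RNA of 4 whole uteri was sequenced as poly(A)-enriched, strand-specific read pairs. According to the submitters' processing notes and the file headers, the authors aligned reads with STAR 2.7.3a to GRCm38.p6 and deposited raw counts per gene from featureCounts 2.0.0 (reverse strand, both ends mapped, mapping quality of at least 3, pairs with several positions or genes not counted). Of 55421 identifiers, 55240 were named by GENCODE M21, and the coordinates of all members agreed. No member shared exon sequence on the same strand with another gene.

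Genes reaching 1 CPM in 2 or more libraries were kept, a rule taken from the study's methods and applied here to CPM of the library totals, which left 14492 genes. How the study computed CPM is not given in the sources used here, and the set kept here is smaller than the study's own, which was not used. All shares of genes tested refer to the set kept here. Counts were normalized by TMM (factors 0.957 to 1.05) and compared with edgeR 4.0.16 (glmQLFit, glmQLFTest) in R 4.3.3, with Benjamini-Hochberg adjustment over all genes kept, after the steps were tested on simulated data. TPM were computed from counts and the file's gene lengths. Standard errors are the log2 fold change divided by the square root of F. Alternatives were DESeq2 1.42.0, other normalizations and filters, a replicate block and each library left out. Libraries of 1 group were not copies of each other, with a chi-square per gene of 188 (WT) and 118 (Qa-2-). The floor of a count of 0 was 3 counts, for counting error only.

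The members and lists were chosen with earlier results of these data known. All members are described, and of the other pathway genes the 3 largest and 3 smallest log2 fold changes, and for Ren1, the tested member with the largest difference, the 5 genes of nearest pattern. Mme, Bdkrb2 and the marker genes named beside a member were chosen after their values were seen, as were the within-library ratios. 1 gene of the planned pathway list was left out of all counts and is not reported here.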

Additional observations from a re-analysis of the deposited data

How the results depend on the processing

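The edgeR fit as reported, with the filter, all 4 libraries and no replicate block, called 0 genes, 0 members and 0 other pathway genes. DESeq2 called 700 genes, 1 member (Ren1) and 2 other pathway genes, the fit without a filter called 61 genes and 1 other pathway gene (Kng2), and the replicate block called 2 genes, none of them in the pathway. The replicate numbers were not treated as pairs, because the mice are different animals with no pairing described. The deviations of same-numbered libraries had a correlation of -0.39, and those of libraries paired crosswise 0.39. With 2 libraries per group these must be equal in size and opposite in sign, so they cannot decide on a pairing. Pairing the numbers crosswise, a fit chosen after seeing the data, called 0 genes. Leaving out each library in turn gave 0 to 93 genes (4 without WT replicate 1 and 93 without WT replicate 2), with the lone library of a group assumed to vary like the other group, and 0 members. Scaling by upper quartiles or by library totals, a minimum of 10 counts in all samples and a threshold of 0.1 each gave 0 called genes. The cause of these differences was not tested.

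Ren1, Ace, Agtr1a, Agtr2 and Lnpep kept their direction under all 11 alternatives, and Agt under all 8 run without a filter. Except for Agtr1a, the groups did not overlap for these genes, so leaving out a library could hardly turn their direction. The other alternatives used the same libraries again. The log2 fold change of Agtr1a was 0.03 without WT replicate 2, and that of Agt was -0.25 without Qa-2- replicate 1. Leaving out each library gave -0.36 to 0.52 for Enpep, -0.44 to 0.19 for Agtr1b (fitted without a filter) and -1.33 to 2.67 for Ctsg on the log2 scale. TPM computed without haemoglobin and mitochondrially encoded genes were 2.34% to 4.16% higher. Agt, Agtr1b and Mas1 had at most 81 counts in any library, which limits what could be detected.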
